A study of Eonycteris spelaea and Mus musculus with 51 samples.

Results

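The clustered histone genes of the mouse are 63 of the 40840 rows of the deposited mouse count table. They were taken by symbol alone, as H1f1 to H1f5 and every symbol that begins with H2ac, H2bc, H3c or H4c and a number. The rule reads no expression value. They comprise 5 linker histone (H1) genes, 17 H2A genes, 17 H2B genes, 12 H3 genes and 12 H4 genes. Histones outside these clusters, such as H1f0 and H3f3b, are described separately as replacement histones.

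The study gave whole living bats and mice a heat shock and sequenced bulk RNA of blood, lung and muscle; the 24 mouse libraries are described here. Control mice were sampled at baseline without heat, heat mice directly after 1 h of heat shock, and recovery mice after the same 1 h and a further 4 h. Lung and muscle had 3 libraries per condition and blood had 2, numbered 1 and 3 in control and 1 and 2 in the other conditions. The labels used here give no strain, genotype, sex or age, and do not say whether libraries of the same number share an animal. They do not say that replicates were separate animals either, so p-values measure the spread between these libraries. No unheated group was sampled at the later times, so heat, handling and time of sampling cannot be told apart.

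Histone proteins package DNA into nucleosomes: H2A, H2B, H3 and H4 form the core, and linker histone H1 binds the DNA entering and leaving it. The clustered genes supply most new histone while DNA is copied, and their transcripts rise in S phase and are degraded when replication stops. Their usual transcripts lack introns and a poly(A) tail and end instead in a short stem-loop bound by the stem-loop binding protein SLBP, although some of these genes also give polyadenylated transcripts in cells that no longer divide. Whether poly(A) selection or ribosomal RNA depletion was used was not given in the sources used here, so the transcript form behind the counts cannot be told apart.

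The stem-loop is the sequence feature that sets these transcripts apart from nearly all others, so it was looked for in the annotated transcripts. In GENCODE M21, which lists the family under older symbols that were not matched one by one to those of the count table, 63 coding histone genes of these clusters were found, 53 on chromosome 13 and 10 on chromosome 3. Among 16-base stretches whose outer 6 bases pair with each other around a loop of 4 bases, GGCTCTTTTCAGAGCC was held by the most of these genes, 24, and the form with the same loop and 1 other base pair, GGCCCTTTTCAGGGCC, by 6, all of them H4 genes. The letters common to both forms, GGCNCTTTTCAGNGCC, were present on the sense strand in 30 of the 63 genes, or 47.6%, against 5 of 21814 other coding genes, or 0.0229%. The capitals below mark these 16 letters within a window of 30 bases of the transcript, shown for 3 linker histone genes and for genes of H2A, H2B and H4.
Hist1h1c: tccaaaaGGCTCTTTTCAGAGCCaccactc
Hist1h1d: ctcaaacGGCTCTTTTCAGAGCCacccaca
Hist1h1e: acccaaaGGCTCTTTTCAGAGCCacccaca
Hist2h2aa1: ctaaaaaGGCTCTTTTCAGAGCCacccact
Hist1h2be: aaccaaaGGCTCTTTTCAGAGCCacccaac
Hist1h4d: aaccaaaGGCCCTTTTCAGGGCCactacct
Hist1h4h: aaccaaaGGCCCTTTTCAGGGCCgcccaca
Other hairpins of this size in the family were not taken as matches: TGCGCGAGATCGCGCA was in 12 genes, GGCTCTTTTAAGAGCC in 5, and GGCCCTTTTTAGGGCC and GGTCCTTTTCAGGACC in 2 each. By family the letters were found in 3 of 5 H1, 9 of 17 H2A, 7 of 17 H2B, 5 of 12 H3 and 6 of 12 H4 genes. Of the 33 genes without them, 14 have no annotated transcript of 420 bases or more. In 13 genes the annotated transcript runs on for over 100 bases past the letters. A match describes the annotation, and its absence says only that these letters are not in the annotated transcript.

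The members also resemble each other in sequence, which bears on how reads are assigned. In the same annotation 56 of the 63 genes share an exact stretch of at least 100 bases with another gene of the set, including 16 of 17 H2A, 15 of 17 H2B and 12 of 12 H3 genes but 3 of 5 H1 genes. In the count table H2ac19 and H2ac18 held nearly the same counts in every library, with a median difference of 0.734% and a largest difference of 2.24%. The pairs H2bc23 and H2bc24, H3c15 and H3c14, and H2ac23 and H2ac24 differed by a median of 1.1%, 1.65% and 3.3%. The division of reads within these pairs is uncertain, and the paired rows are not independent measurements. The values of single members with close copies carry the same uncertainty.

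The total count per library ranged from 17092519 to 27367824 in lung, 26304138 to 37243600 in muscle and 32464797 to 54493918 in blood. The 63 genes held between 0.0349% and 0.0867% of the counts of a lung library, 0.0224% to 0.0533% in muscle and 0.0391% to 0.0743% in blood. H2ac1 had no read in any library, and H2bc1 passed the filter on low counts in no tissue, which left 61 members tested in lung and blood; H2bc14 and H2bc7 also failed it in muscle, which left 59. Over the tested members the median of the mean count per library was 121 in lung, 50.7 in muscle and 182 in blood. The labelled tissues matched their markers: summed lung markers were at least 15970 CPM (the usual per-library scale for counts, here with TMM factors of the tissue) in lung and at most 133 CPM elsewhere. Erythroid transcripts, mostly globin, took 51.7% to 68.4% of the counts of the blood libraries. Muscle control 1, control 2 and recovery 1 stood apart from the other muscle libraries, with lower summed skeletal muscle markers (175100 to 185200 against 283000 to 331000 CPM) and higher summed T and NK cell markers (65.7 to 146 against 2.9 to 26.7 CPM).

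In control lung, H2ac19 and H2ac18 held the most reads of the 63 genes, with 10% and 9.94% of their summed CPM, followed by H4c4 (7.32%), H1f2 (7.12%) and H4c8 (4.57%). In control muscle the order began with H1f2 (14.7%), H2ac19 (11.9%), H2ac18 (11.8%), H2bc4 (5.21%) and H4c8 (4.08%). In control blood it began with H1f2 (11.2%), H4c17 (8.5%), H2ac18 (8.38%), H2ac19 (8.35%) and H2bc4 (6.93%). These shares of reads also depend on transcript length, which was not available for the symbols of the table, and neighbours such as H4c17 (48.9 ± 7.51 CPM) and H2ac18 (48.2 ± 8.21 CPM, SD, n = 2 each) in blood did not differ beyond their spread. H1f2 and the H2ac18 and H2ac19 pair were among the 5 leading members in each of the 3 tissues.

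Between control tissues the order of the members depended on the scaling. With TMM factors computed over all 24 libraries, 48 of 61 members were higher in blood than in lung (26.6% of 22592 genes tested were called in this direction) and the median member was 1.41 higher on the log2 scale, whereas with scaling to library size alone the median was -0.13. Against muscle, 51 of 61 were higher in blood (28.4% of all genes), with a median of 1.40 by TMM and 0.80 by library size. Between lung and muscle 7 of 61 members differed, against 56% of all genes. H4c14 (log2 difference 0.85) and H4c4 (1.04) were higher in lung and H1f2 (-1.29), H4c9 (-3.05), H2bc4 (-0.69), H2ac19 (-0.48) and H2ac18 (-0.49) were lower, by edgeR with Benjamini-Hochberg adjustment. By library size alone H1f2 overlapped between the tissues (52.1 ± 4.37 CPM in lung and 62.7 ± 11.4 CPM in muscle, SD, n = 3 each), a log2 difference of -0.27. H4c9 was lower in all lungs (1.92 ± 0.101 against 7.80 ± 0.889 CPM), while H2bc4, H2ac19 and H2ac18 were higher in all lungs on that scale, the opposite direction to TMM. Library-size scaling moved the median of all genes between lung and muscle from 0.07 to 0.99. For blood against lung it moved that median from -0.13 to -1.53, and for blood against muscle from -0.20 to -0.63. In both comparisons with blood the median member lay above the median of all genes on either scale.

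In lung, part of the set fell after heat shock, and the largest 2 of the called changes were in linker histones. Of 61 members 9 fell (14.8%) and none rose, against 2.72% of 19438 genes that fell and 3.14% that rose; a gene is said to rise or fall where its p, adjusted by Benjamini-Hochberg over all genes in edgeR's quasi-likelihood fit, was under 0.05. The 9 were the linker histones H1f2 and H1f4, the H2A pair H2ac18 and H2ac19, the H3 genes H3c6 and H3c13, and the H4 genes H4c3, H4c4 and H4c14. No H2B gene was called. The log2 change was negative for 53 of the 61, and its median over the members was -0.34, against -0.01 over all genes tested. By family the median was -1.02 for H1, -0.63 for H4, -0.40 for H3, -0.28 for H2B and -0.20 for H2A.

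H1f4, which encodes the linker histone H1.4, stood at 20.6, 19.6 and 25.2 CPM in the 3 control lungs, 6.86, 9.04 and 3.08 CPM in the heat lungs and 31.7, 24.9 and 25.4 CPM in the recovery lungs. Every heat library lay below every other library. The fall was -1.76 ± 0.295 on the log2 scale (SE; 21.8 ± 2.99 to 6.33 ± 3.02 CPM, SD, n = 3 each; edgeR with Benjamini-Hochberg adjusted p = 0.0147). H1f2, which encodes H1.2, stood at 46.9, 50.9 and 55.5 CPM in control, 25.3, 29.4 and 16.4 CPM in heat and 74.5, 63.6 and 63.1 CPM in recovery. It fell by 1.10 on the log2 scale (SE 0.175, edgeR with Benjamini-Hochberg adjusted p = 0.0092), again with no overlap, and its 3 recovery libraries lay above all controls.

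The other linker histone genes had fewer reads and did not pass the test. H1f3 was 12.9, 10.4 and 12.6 CPM in control and 6.74, 8.53 and 2.88 CPM in heat (log2 -0.96, edgeR with Benjamini-Hochberg adjusted p = 0.0779). H1f5 was 4.78, 5.48 and 4.86 CPM in control and 2.95, 3.40 and 1.22 CPM in heat (log2 -0.97, adjusted p = 0.0886 in edgeR). H1f1 was 1.91, 1.56 and 2.43 CPM in control and 0.968, 1.45 and 0.449 CPM in heat (log2 -1.02, adjusted p = 0.117 in edgeR). In each of the 5 genes all heat libraries were below all control libraries, and heat 3 was the lowest.

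**Figure D1:**
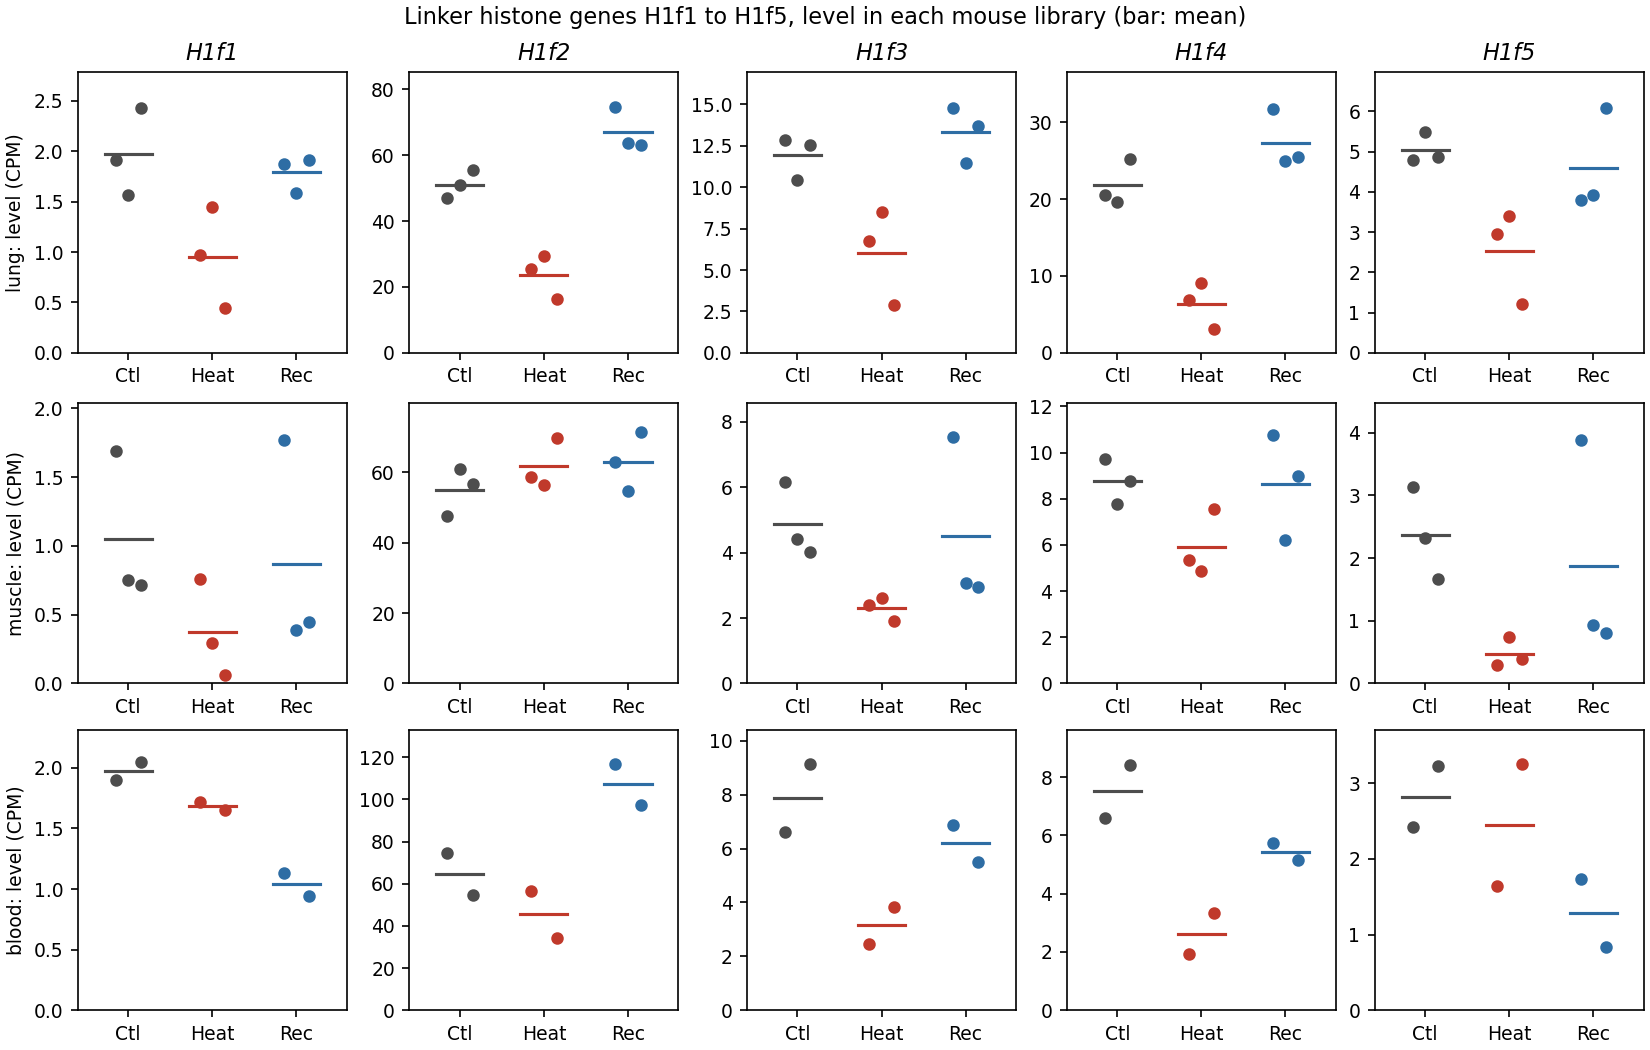
Level of each linker histone gene (CPM, vertical axis from 0) in every library of lung, muscle and blood, by condition (Ctl control, Heat, Rec recovery); points are libraries and bars are group means. In lung the heat points of all 5 genes lie below the control points, whereas in muscle H1f2 overlaps between conditions.

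Among the core histones, the H2A gene H2ac19 stood at 62.6, 77.5 and 75.8 CPM in control lung and 39.9, 53.2 and 34.2 CPM in heat lung (log2 -0.76 ± 0.154, SE; edgeR with Benjamini-Hochberg adjusted p = 0.0214). H2ac18, its near-equal row, changed by -0.76 as well. The groups did not overlap in either row. H4c3 was 22.7, 21.1 and 23.4 CPM in control and 11.6, 16.4 and 8.01 CPM in heat (log2 -0.89, adjusted p = 0.0316 in edgeR). H4c14 was 19.8, 23.9 and 23.9 CPM in control and 17.01, 13.4 and 9.68 CPM in heat (log2 -0.74, adjusted p = 0.032 in edgeR). Both H4 genes had their lowest value in heat 3. H4c4, the H4 gene with the most reads, had a mean of 52.5 ± 6.81 CPM in control and 28.8 ± 9.74 CPM in heat (SD over 3 libraries, log2 -0.86, adjusted p = 0.0396 in edgeR), and the H3 genes H3c13 (-0.54) and H3c6 (-0.46) fell least among the 9.

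Not all members were lower. H2bc4, the H2B gene with the most reads in lung, had 24.8, 29.6 and 27.7 CPM in control and 28.3, 31.6 and 28.6 CPM in heat. The 8 members with a positive log2 change reached at most 0.50, in H2bc7, and none was called. H3c8, at 2.02, 1.96 and 1.75 CPM in control and 2.02, 2.42 and 3.59 CPM in heat, had a log2 change of 0.48. The groups did not overlap, heat lower, in 24 of 61 members (39.3%; 14.2% of all genes) and, heat higher, in 1 member (12.7% of all genes). The 24 included all 5 H1 genes, 6 of 12 H3, 6 of 12 H4, 4 of 16 H2A and 3 of 16 H2B genes.

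**Figure D2:**
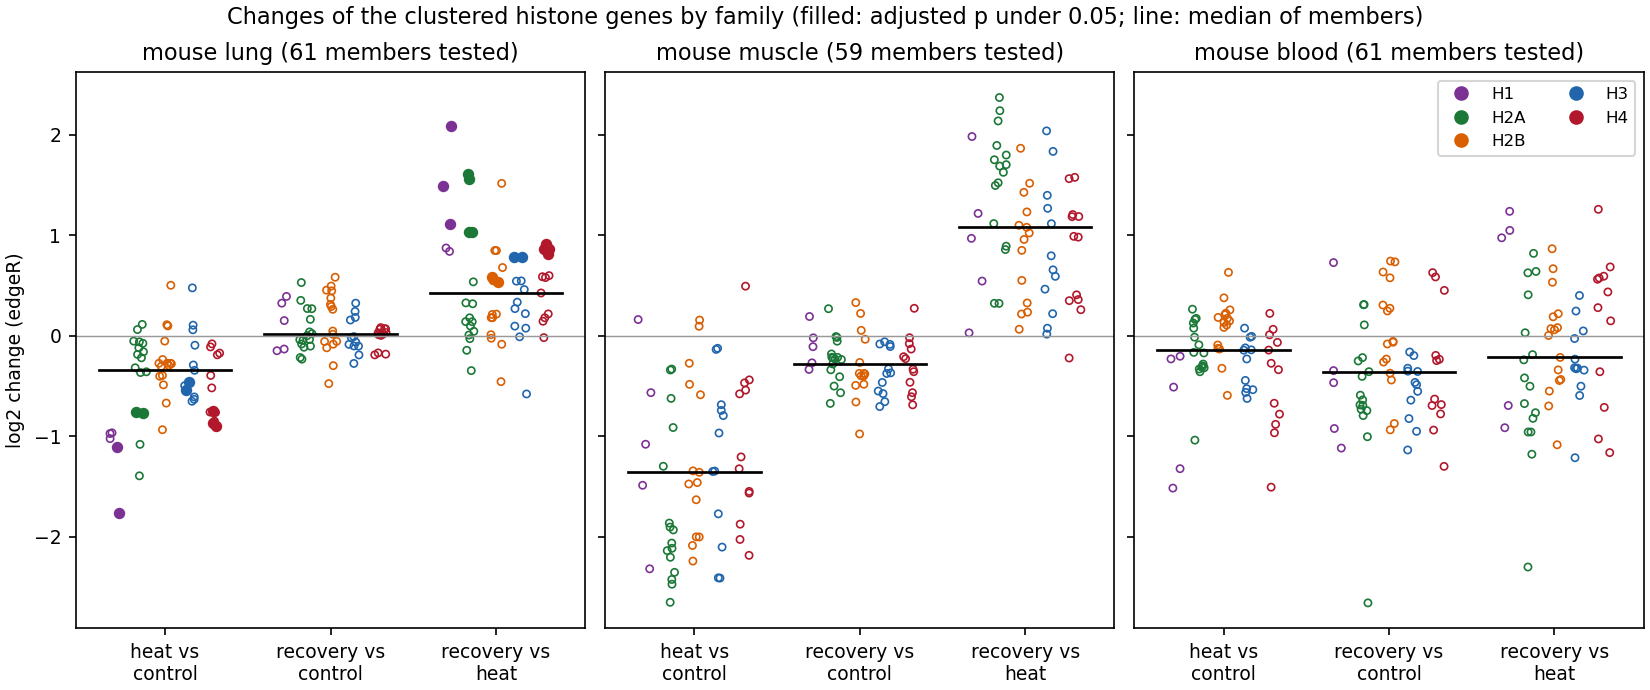
Log2 change (vertical axis, edgeR) of every tested member in 3 comparisons within lung, muscle and blood, coloured by family; filled points have an adjusted p under 0.05 and the line is the median of the members. Filled points occur in lung alone, 9 below 0 for heat versus control and 15 above 0 for recovery versus heat, and the muscle medians of -1.36 and 1.08 carry no filled point.

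The heat lungs differed among themselves. Heat 3 was the lowest heat library in 51 of 61 members (83.6%, against 40.2% of all genes), and heat 2 the highest in 42 (31.9% of all genes). Summed over the set, the members stood at 504, 602 and 383 CPM in heat 1, 2 and 3, against 670, 733 and 749 CPM in control. The summed level of 6 heat shock genes (Hspa1a, Hspa1b, Hsph1, Dnajb1, Hsp90aa1 and Hspa8) had the opposite order in the same libraries: 8463, 3216 and 23640 CPM, against 1171 to 1324 CPM in control. The part of the strength of the heat response in the histone values was not tested. The number of members called in the heat comparison followed single libraries, since it was 20 when heat 2 was left out (10.9% of all genes were called in that fit) and 7 for heat 3 (4.94%), but 2 for heat 1 (1.6%). Leaving out control 1, 2 or 3 gave 3, 2 and 0 (1.02%, 2.65% and 0.668% of all genes). Leaving out recovery 1, 2 or 3 gave 4, 4 and 5 (3.67%, 3.04% and 3.82% of all genes). Without control 2 the share of members called, 3.28%, was near that of all genes. Without control 3 H1f2 had a log2 change of -1.04 and an adjusted p of 0.0524 in edgeR, and H1f4 -1.64 and 0.0662. H1f4 also lost its call without control 1 and without heat 1. Over 15 settings the call was lost in 1 for H1f2, in 3 for H1f4 and H2ac19, and in 8 for H4c3 and H4c14. It was lost in 10 for H3c13 and H4c4, in 11 for H3c6, and in 4 of 14 for H2ac18.

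**Figure D3:**
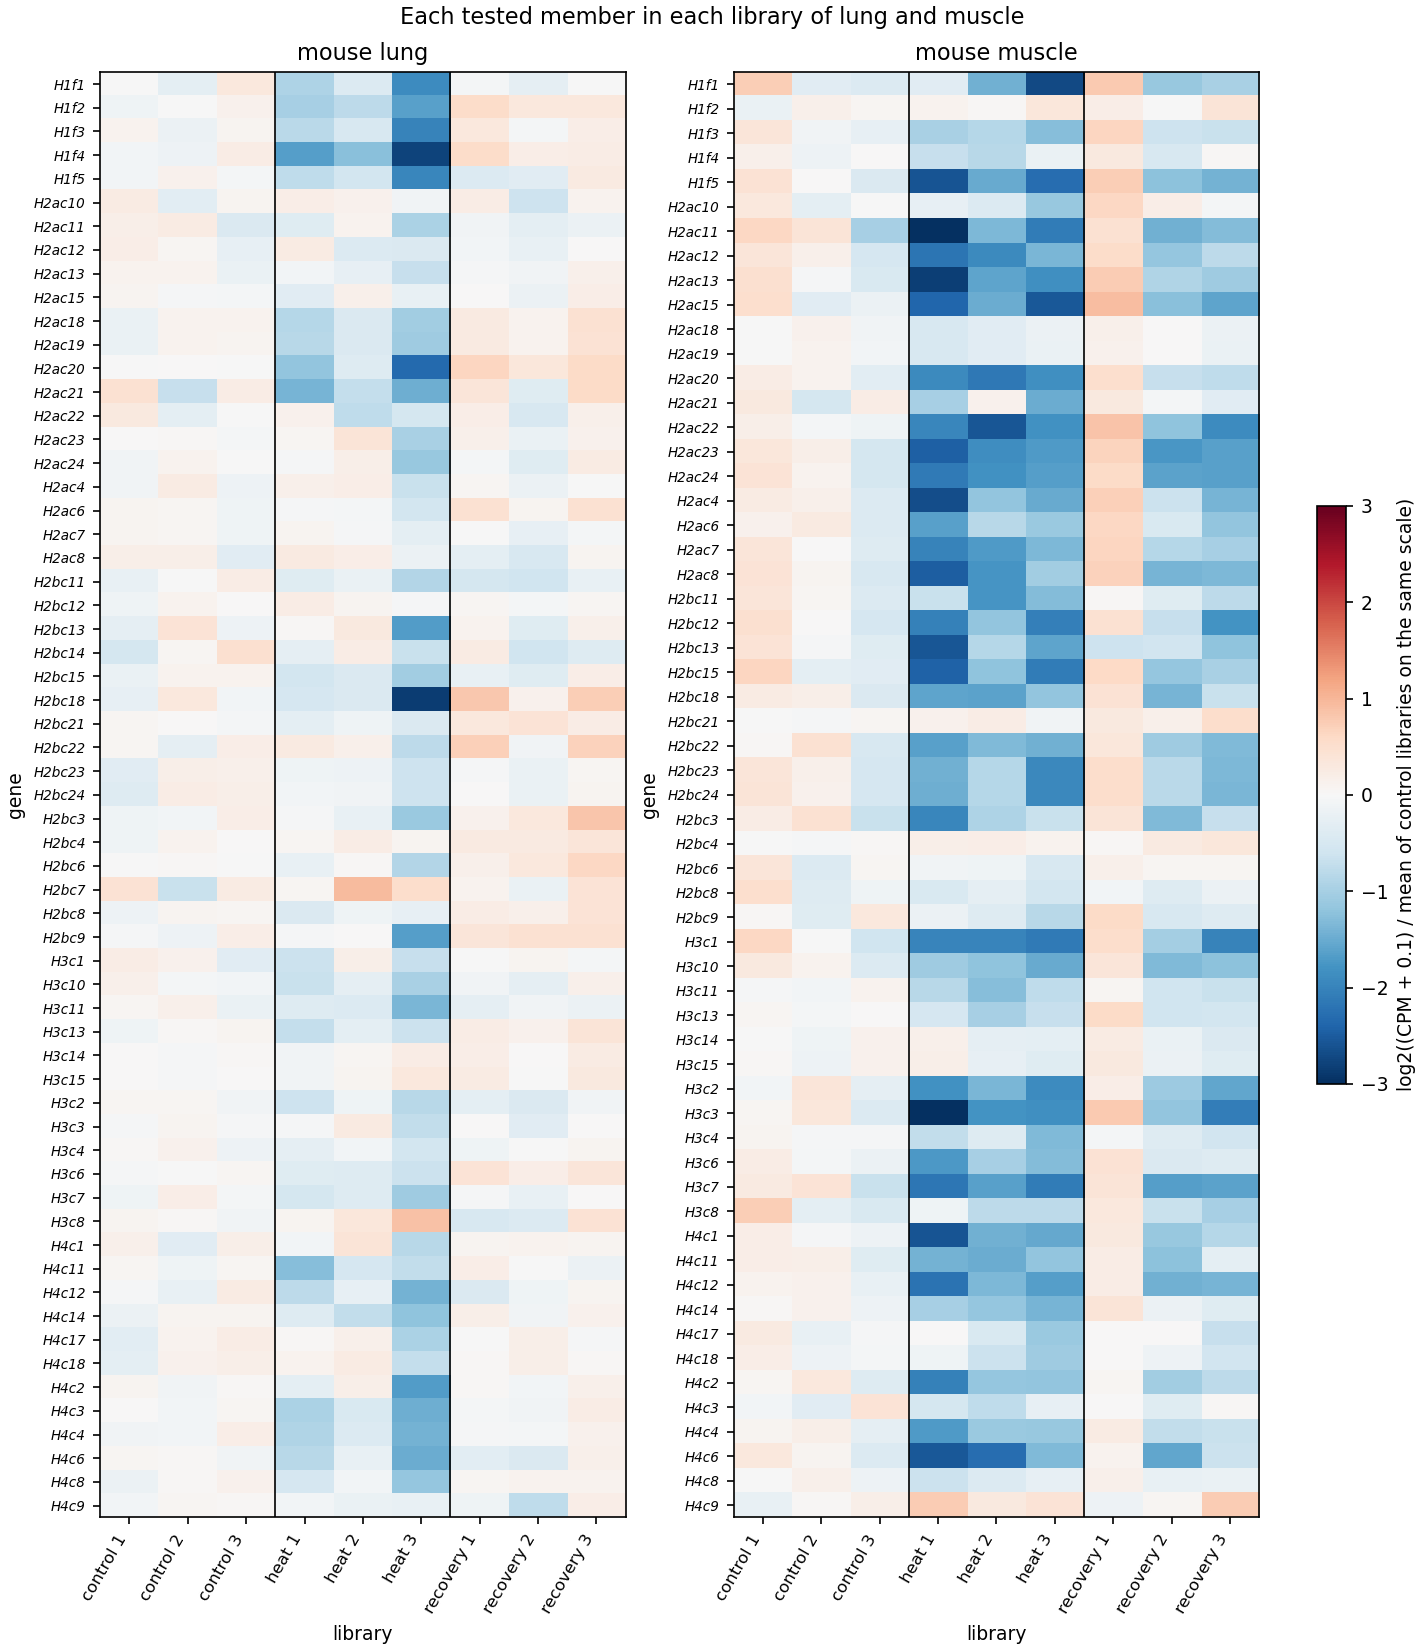
Each tested member (rows) in each lung and muscle library (columns), as log2 of CPM + 0.1 over the mean of the control libraries on the same scale, with blue lower and red higher. In lung the column of heat 3 is the bluest, and in muscle recovery 1 resembles the controls while recovery 2 and 3 are bluer.

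After 4 h of recovery part of the lung members had risen from heat, and none differed from control past the threshold. The log2 change from control had a median of 0.02, and no member was called in edgeR or DESeq2 (0.0309% of all genes were called by edgeR), with 4 members at an unadjusted p under 0.05 (7.14% of all genes). From heat to recovery 15 of 61 members rose (24.6%) and none fell, against 5.46% and 5.84% of all genes. These were the 9 that had fallen, joined by H1f3, H2ac20, H2ac21, H2bc8, H2bc21 and H4c11, where the comparison shares its heat libraries with the one above. The median log2 change over all 61 members was 0.43, against 0.02 over all genes tested. H1f4 rose by 2.08 on the log2 scale (SE 0.295; 27.3 ± 3.81 CPM in recovery) and H1f2 by 1.495 (SE 0.175; 67.1 ± 6.43 CPM), with edgeR Benjamini-Hochberg adjusted p-values of 0.00442 and 0.00148.

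H2ac20, an H2A gene, had 9.03, 9.17 and 8.97 CPM in control, 3.96, 6.94 and 1.73 CPM in heat and 14.3, 11.5 and 13.5 CPM in recovery. Heat was lowest and recovery highest without overlap. It rose from heat to recovery by 1.61 on the log2 scale (SE 0.345, adjusted p = 0.0182 in edgeR). H3c6 rose by 0.78, from 10.02, 9.93 and 8.33 CPM in heat to 17.2, 15.03 and 16.6 CPM in recovery, which again did not overlap. Summed over the 63 genes, recovery lungs held 804, 734 and 850 CPM, 1.6 times the mean of the heat lungs. The count of members that rose was 23 when heat 2 was left out (14.8% of all genes were called in either direction) and 8 for heat 1 (5.68%). It was 6, 7 and 7 for recovery 1, 2 or 3 (3.15%, 3.7% and 4.97%).

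The list called replacement histones holds histone genes outside the clusters, among them H4f16, an H4 gene. Of its 11 tested genes 2 fell in heat lung, H1f0 and H3f3b. H1f0, which encodes the linker histone of resting cells, fell from 64.1 ± 2.26 to 39.5 ± 6.17 CPM (log2 -0.70, edgeR with Benjamini-Hochberg adjusted p = 0.00657). H3f3b, which encodes histone H3.3, fell from 246 ± 9.78 to 181 ± 10.9 CPM (log2 -0.44, adjusted p = 0.00868 in edgeR). H3f3a, the second H3.3 gene, stood at 168 ± 21.2 CPM in control and 165 ± 17.8 CPM in heat. H2az1 and H2az2, which encode H2A.Z, had log2 changes of -0.01 and -0.08. From heat to recovery 5 of the 11 rose: H1f0 (0.99), H3f3b (0.62), Macroh2a2 (0.63), H1f10 (1.061) and H4f16 (0.98). The median of the list was -0.16 in heat.

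Genes that make and handle histone mRNA and protein had few calls in lung. Of all genes edgeR called 5.85% in heat and 11.3% from heat to recovery. Lists of 26 or 43 genes are too short to set few calls apart from these shares. Of 26 tested genes of histone gene transcription and mRNA processing none was called by edgeR in heat, with a median of 0.04. Of these 7 had an unadjusted p under 0.05 (23.5% of all genes), and DESeq2 called 2. From heat to recovery 1 was called, Nfya, a subunit of the CCAAT-binding factor NF-Y, which fell by 0.57 on the log2 scale. Of 26 histone chaperones 2 rose in heat (3.14% of all genes rose), with a median of -0.02. These were Nasp (0.76), a chaperone of H3, H4 and linker histones, and Ubn1 (0.34), of the HIRA complex. Spty2d1, an H3 and H4 chaperone, fell from heat to recovery (-0.41). Of 43 S phase and proliferation genes 1 rose, the chromatin remodeller Hells (0.83), none fell, and the median was -0.06. From heat to recovery Hells (-1.05) and the replication licensing factor Cdc6 (-1.49) fell and Mcm2 (0.42), a subunit of the replicative helicase, rose. The summed level of these genes was 379 to 390 CPM in control and 359 to 415 CPM in heat, and these ranges overlapped. The part of proliferation in the histone values was not tested. Of 13 RNAs that lack a poly(A) tail, such as Rn7sk, none was called by edgeR in heat. Of these 2 had an unadjusted p under 0.05 (23.5% of all genes), and DESeq2 called none. From heat to recovery all 13 had a positive log2 change, with a median of 0.30, and edgeR called none. There 2 had an unadjusted p under 0.05 (28.3% of all genes), and DESeq2 called 2. Their summed level was 29440 to 42110 CPM in control, 29740 to 35430 CPM in heat and 37580 to 49460 CPM in recovery. Whether this bears on the members' values was not tested.

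**Figure D4:**
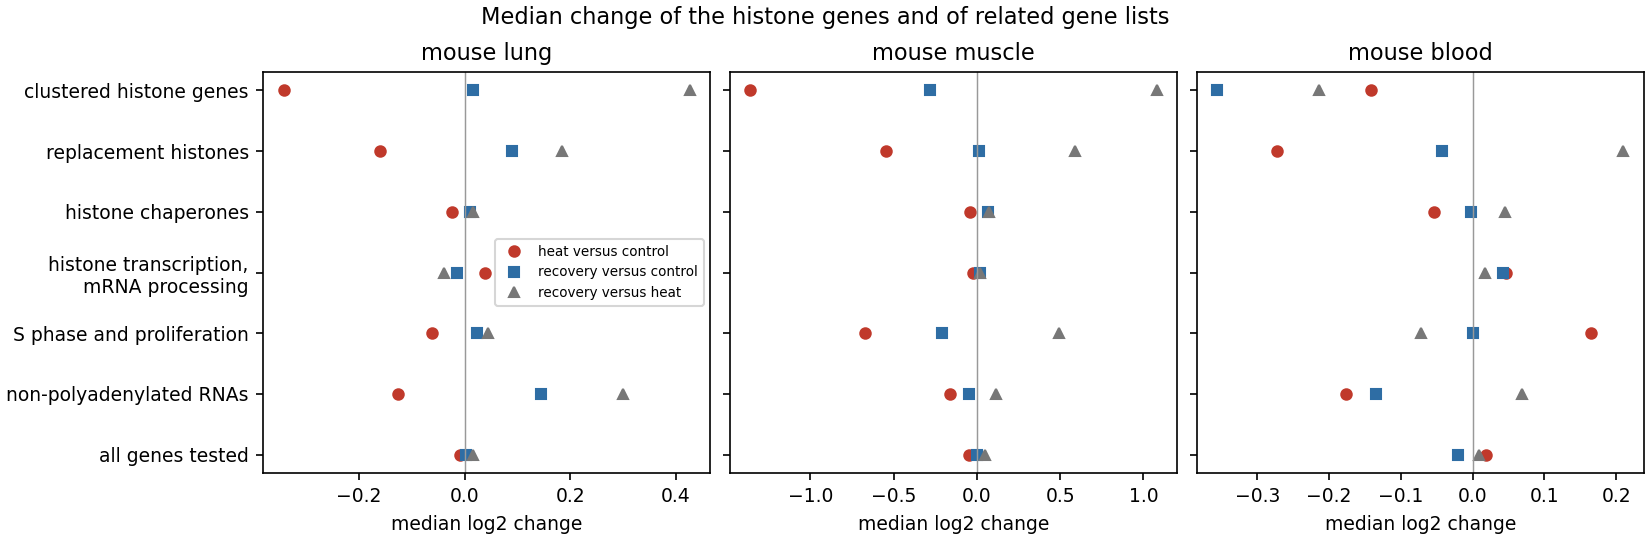
Median log2 change (horizontal axis, scaled separately per tissue) of the clustered histone genes and of related gene lists in lung, muscle and blood, for 3 comparisons; the last line is the median of all genes tested. In lung the clustered histone genes have a median of -0.34 in heat, while the lists of chaperones, of processing factors and of S phase genes lie between -0.06 and 0.04.

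Lymphocyte markers also had lower summed levels in heat lung than in control lung. Of 13 B cell markers 7 fell in heat, with a median log2 change of -0.90, and their summed level was 380 to 408 CPM in control, 218 to 230 CPM in heat and 203 to 445 CPM in recovery. Of 16 T and NK cell markers 3 fell, with a median of -0.63, and the sums were 132 to 155 CPM in control, 97.9 to 105 CPM in heat and 130, 109 and 123 CPM in recovery. No marker of either list was at 0 in all libraries of a lung group. In bulk tissue fewer cells of a type and less RNA per cell cannot be told apart. Recovery 3, the lung library with the highest histone sum (850 CPM), had a B cell sum of 203 CPM, below all heat lungs, and a T and NK sum of 123 CPM, above all of them. In heat 1, 2 and 3 the B cell sums were 230, 218 and 219 CPM and the histone sums 504, 602 and 383 CPM. The part of lymphocytes in the lung values of the members was not tested.

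**Figure D5:**
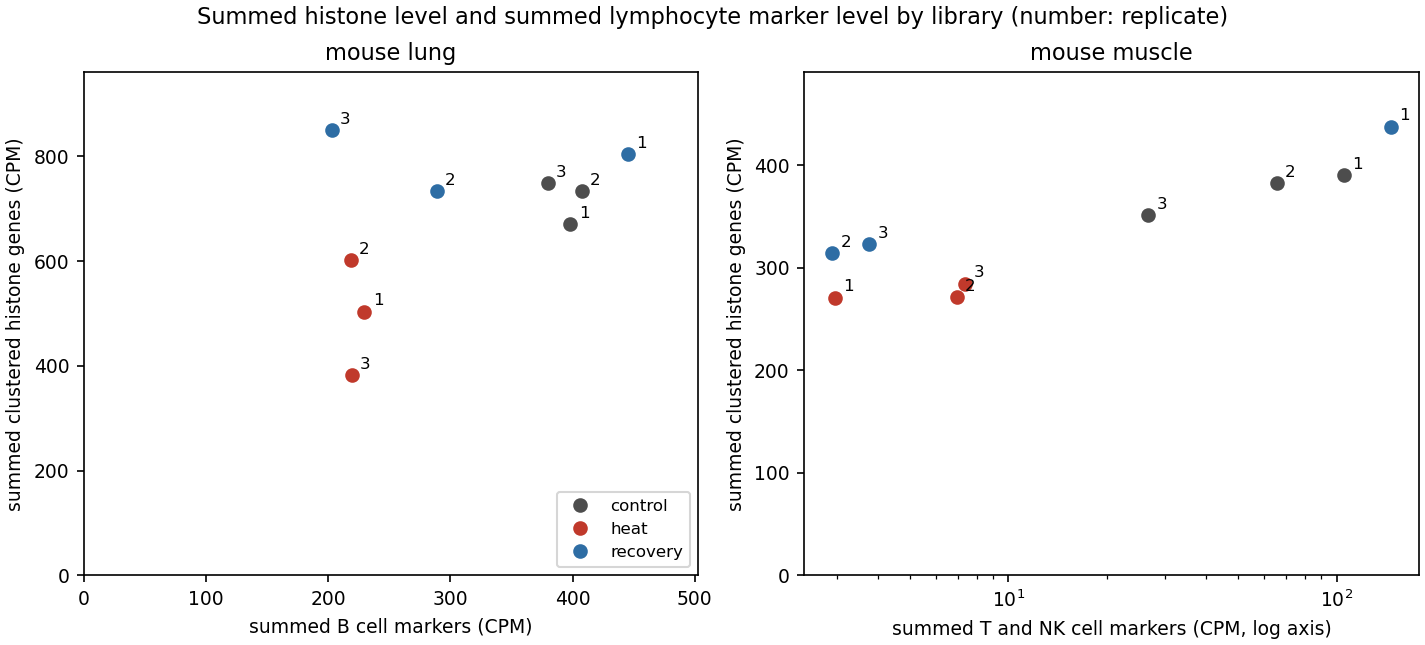
Summed level of the 63 genes (vertical axis, CPM from 0) against summed B cell markers in lung (CPM) and summed T and NK cell markers in muscle (CPM, log axis); each point is a library and the number its replicate. In lung, recovery 3 has the fewest B cell transcripts and the highest histone sum, and in muscle recovery 2 and 3 lie above the heat libraries at T and NK sums of 2.9 and 3.76 CPM.

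In muscle most members had lower values in heat than in control, but none passed the test. Of 59 members none was called by edgeR (0.428% of 17746 genes were), while 43 had an unadjusted p under 0.05 (30% of all genes) and DESeq2 called 27. The share of all genes that DESeq2 called is not given here or for the comparisons below. The median log2 change was -1.36, against -0.05 over all genes tested, and 55 of 59 were negative. By family the median was -2 for H2A, -1.41 for H2B, -1.26 for H4, -1.16 for H3 and -1.08 for H1. Control and heat did not overlap, heat lower, in 42 members (71.2%, against 21.5% of all genes). The smallest p in edgeR belonged to H2ac20, at 3.69, 3.38 and 2.49 CPM in control and 0.757, 0.632 and 0.809 CPM in heat (log2 -2.11, Benjamini-Hochberg adjusted p = 0.0568).

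H1f2, the member with the most reads in muscle, stood at 47.7, 60.9 and 56.8 CPM in control, 58.7, 56.6 and 69.9 CPM in heat and 63.0, 54.7 and 71.4 CPM in recovery, and the groups overlapped. H2bc4 had 19.4, 19.2 and 19.99 CPM in control and 22.0, 22.4 and 20.9 CPM in heat, and H4c9 had 5.91, 7.10 and 7.73 CPM against 11.7, 8.43 and 9.10 CPM. These were the 2 members whose heat libraries lay above all controls (16.1% of all genes). H1f4 was 9.73, 7.79 and 8.79 CPM in control and 5.36, 4.87 and 7.54 CPM in heat (log2 -0.56), without overlap. H1f5 was 3.13, 2.32 and 1.67 CPM in control and 0.296, 0.743 and 0.389 CPM in heat (log2 -2.32, adjusted p = 0.101 in edgeR). H1f3 had a log2 change of -1.08, and H1f1, under 2 CPM throughout, -1.49 with overlapping groups. The H1 sum was thereby 72.2 ± 3.87 CPM in control and 70.8 ± 7.92 CPM in heat, while the H3 sum was 58.5 ± 4.43 and 33.6 ± 3.63 CPM (SD, n = 3 each).

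Lymphocyte markers differed between the muscle libraries as well. Summed T and NK cell markers stood at 105, 65.7 and 26.7 CPM in control, 2.96, 6.95 and 7.38 CPM in heat and 146, 2.9 and 3.76 CPM in recovery. Summed B cell markers were 397, 260 and 121 CPM, then 68.1, 129 and 64.1 CPM, then 605, 92.8 and 34.5 CPM in the same order. The median log2 changes in heat were -4.29 for 14 T and NK cell markers and -3.55 for 13 B cell markers, and none of either list was called by edgeR (10 and 1 had an unadjusted p under 0.05, and DESeq2 called 4 and 1). Of the markers listed, Ncr1 had no read in any heat library. Monocyte and macrophage markers had lower values too, with 10 of 10 negative and a median of -1.56. None of these 10 was called by edgeR (6 had an unadjusted p under 0.05 and DESeq2 called 6), and summed they reached 222, 158 and 81.6 CPM in the control muscles but 37.4, 48.0 and 78.8 CPM after heat. S phase genes had a median of -0.67. Across the muscle libraries the 4 with the highest histone sums, recovery 1 (438 CPM) and the 3 controls (391, 383 and 351 CPM), were also the 4 with the highest T and NK sums. The B cell sums did not have this order, since heat 2 (129 CPM) lay above control 3 (121 CPM). The part of these immune cells in the muscle values of the members was not tested.

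The summed histone level was 271, 271 and 285 CPM in the heat muscles, and 314 and 323 CPM in recovery 2 and 3. Control 1, control 2 and recovery 1, the libraries rich in lymphocyte transcripts, were left out in a further fit chosen after the values were seen. Without control 1, control 2 and recovery 1 the median log2 change of the members in heat was -1.04 and from heat to recovery 0.35. That fit held 1 control library, so the number of members called is not given. Without recovery 1 alone, 34 of 60 members were called in heat, all with lower values, against 15% of all genes in that fit, and without control 3 alone 1 was (2.04% of all genes).

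In recovery muscle no member was called by edgeR against control (0.0676% of all genes were; no member had an unadjusted p under 0.05, against 4.95% of all genes, and DESeq2 called none) or against heat (0.468% of all genes; 32 members had an unadjusted p under 0.05, against 19.7% of all genes, and DESeq2 called 5). The median log2 change from control was -0.28 and from heat 1.08. H4c14 had 5.63, 6.03 and 4.90 CPM in control, 2.73, 2.42 and 2.04 CPM in heat and 7.28, 4.84 and 4.23 CPM in recovery. Its heat libraries were below all others, and its log2 change from heat to recovery was 1.19 (adjusted p = 0.066 in edgeR). H3f3b, of the replacement histones, had a log2 change of -0.79 in heat and 1.00 from heat to recovery, neither of them called (adjusted p = 0.0881 and 0.07 in edgeR), and H1f0 stood at 51.2 CPM in control and 56.6 CPM in heat.

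In blood, with 2 libraries per condition, no member was called by edgeR in any comparison. For heat versus control 7 of 61 had an unadjusted p under 0.05 (14.8% of all genes), DESeq2 called 3, and 0% of 15869 genes were called by edgeR. For recovery versus control 12 had such a p (8.93% of all genes), DESeq2 called none, and again 0% of all genes were called. For recovery versus heat 17 had such a p (24.2% of all genes), DESeq2 called 4, and edgeR called 3.99% of all genes. The median log2 changes were -0.14, -0.36 and -0.21. The sums were 611 and 539 CPM in control, 517 and 469 CPM in heat, and 668 and 654 CPM in recovery, so the recovery sum was the highest although 47 of 61 members had a negative change from control. H2bc4, a member with many reads, had 49.8 and 29.9 CPM in control, 58.0 and 34.1 CPM in heat and 65.5 and 67.9 CPM in recovery, with recovery above all others.

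The linker histones H1f4 and H1f3 had the smallest p-values of the members in heat blood. H1f4 stood at 6.60 and 8.44 CPM in control, 1.92 and 3.34 CPM in heat and 5.74 and 5.15 CPM in recovery, with heat below all others (log2 -1.51 for heat versus control, edgeR with Benjamini-Hochberg adjusted p = 0.125). H1f3 stood at 6.60 and 9.14 CPM in control and 2.47 and 3.83 CPM in heat (log2 -1.32, adjusted p = 0.136 in edgeR), also without overlap. H1f2 had 74.7 and 54.5 CPM in control, 56.4 and 34.4 CPM in heat and 117 and 97.2 CPM in recovery, so recovery lay above all other libraries while control and heat overlapped. For H1f1 both recovery libraries lay below all others, while for H1f5 recovery 1 (1.74 CPM) lay above heat 1 (1.65 CPM). The log2 changes from control to recovery were -0.92 for H1f1 and -1.12 for H1f5. H4c17, an H4 gene, had 54.2 and 43.6 CPM in control, 61.0 and 37.5 CPM in heat and 66.5 and 80.3 CPM in recovery.

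The blood libraries also differed in their cells. The erythroid marker share was 68.4% in heat 1 and 51.7% in heat 2, and summed monocyte and macrophage markers were 642 and 2781 CPM in the same libraries. Summed neutrophil markers were 426 and 471 CPM in control, 917 and 746 CPM in heat and 230 and 338 CPM in recovery. Summed B cell markers were 1410 and 1178 CPM in control, 947 and 1011 CPM in heat and 1540 and 1477 CPM in recovery, in the same order of conditions as the histone sums. The part of these cells in the histone values was not tested. Leaving out heat 1 or heat 2 left 1 heat library, so the number of members called is not given for these fits. The median log2 change of the members for heat versus control was -0.07 without heat 1 and -0.38 without heat 2. For recovery versus heat the median was -0.295 without heat 1 and 0.08 without heat 2.

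Whether the change of the members differed between tissues was tested as such, in 1 fit of all 24 libraries and 22592 genes. No difference was called by edgeR for any member, in heat or in recovery. For heat, the muscle change minus the lung change had a median of -0.87 over 61 members, with 25 at an unadjusted p under 0.05 (17.7% of all genes) and 4 called by DESeq2 (0.0443% of all genes were called by edgeR). Blood minus lung had a median of 0.15, with 0 at an unadjusted p under 0.05 (5.68% of all genes). DESeq2 called no member there, and edgeR called 0.0575% of all genes. Blood minus muscle had a median of 1.03, with 29 at an unadjusted p under 0.05 (19.8% of all genes). DESeq2 called 10 members there, and edgeR called 1.47% of all genes. The share of all genes that DESeq2 called is not given here. H1f2 and H1f4 went the other way from the median in the muscle minus lung difference, at 1.28 (SE 0.288, edgeR with Benjamini-Hochberg adjusted p = 0.113) and 1.22 (SE 0.417, adjusted p = 0.18). For recovery the medians were -0.32, -0.51 and -0.09, with 0, 4 and 2 members at an unadjusted p under 0.05 (4.23%, 8.42% and 9.73% of all genes) and none called by DESeq2; edgeR called 0.0398%, 0.0221% and 0.0797% of all genes. Without muscle recovery 1, 17 members were called for the muscle minus lung difference in heat (6.04% of all genes) and 20 for blood minus muscle (8.82%).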

How the data were processed

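Reads were aligned with STAR 2.7 and counted per gene with featureCounts on GRCm39, per the submitters' processing notes; TRIzol total RNA went into NEBNext Ultra Directional libraries, as the labels' protocols state. The version of featureCounts, its strand setting and its treatment of reads with several matches are not given in the sources used here. The authors deposited whole-number counts per gene, which were used as they stand.

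A gene was tested where filterByExpr passed it (count of at least 10, total of at least 15). After TMM scaling the tests used edgeR 4.0.16 (quasi-likelihood, limma 3.58.1, R 4.3.3), 1 fit per tissue over its 3 conditions and 1 fit over all tissues, with Benjamini-Hochberg adjustment over all genes tested and a threshold of 0.05. CPM values used TMM factors of the tissue. Alternatives were other scaling, no filter, DESeq2 1.42.0, a replicate block, the joint fit, and leaving out libraries; those that leave out the muscle libraries rich in lymphocyte transcripts were chosen after seeing the data. The members and gene lists were chosen with earlier results of these data known. Named with values are the linker histones, up to 6 called members per comparison by smallest p, the 5 members with the most reads per tissue (levels per length could not be made), and up to 4 called genes of each other list. Other members and genes named (among them H2bc7, H3c8, H2ac20, H4c9 and H4c14 in muscle) were chosen after their values were seen. The steps were tested on simulated data for heat versus control. Of genes changed 2-fold 61% were called in lung, 32% in muscle and 21% in blood. For 4-fold changes the shares were 96%, 67% and 83%. False calls made up 7.1%, 4.81% and 12.6% of the calls, in the same order. A missing call in muscle or blood therefore says less than 1 in lung. No libraries were copies of one another (lowest chi-square per gene 11.6). Libraries with the same number did not deviate together in every pair (correlations from -0.379 to 0.691 within tissues), so the numbers were not taken as pairs.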

Additional observations from a re-analysis of the deposited data

How the results depend on the processing

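The direction of the median change of the members held under every setting run for lung and muscle heat versus control, while the number of members called moved with the tool and with single libraries; the cause was not tested. DESeq2 called 15 for lung heat (against 9), 27 for muscle heat, 5 for muscle recovery versus heat, 3 for blood heat, 4 for blood recovery versus heat, and 4 and 10 for the muscle minus lung and blood minus muscle differences in heat (against 0 each). The joint fit gave 4 for lung heat and 6 for lung recovery versus heat (against 15), 38 and 12 for the same comparisons in muscle, and 2 and 4 in blood. Without the filter 1 was called for muscle heat and 2 and 5 for the blood comparisons. With the replicate block 4 were called for lung heat. The block moved no other count of members by over 1.5 times, and the libraries share only a number. The shares of all genes called by DESeq2, the joint fit, the unfiltered fit and the replicate block are not given here. These counts therefore cannot be set against all genes. Leaving out 1 library gave 0 to 20 for lung heat, 6 to 23 for lung recovery versus heat, 0 to 34 for muscle heat, 0 to 9 for blood heat, 0 to 14 for blood recovery versus heat, 28 to 51 for control blood versus lung (28 without blood control 3), and 0 to 17, 0 to 20, 0 to 4 and 0 to 1 for the differences muscle minus lung in heat, blood minus muscle in heat, muscle minus lung in recovery and blood minus muscle in recovery. The highest of these last 4 came without muscle recovery 1.

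Among single genes, uncalled changes of linker histones turned sign: H1f2 for muscle recovery versus heat was -0.01 by RLE and by DESeq2 (-0.01049 and -0.01077) and -0.0712 to 0.125 with 1 library left out. With 1 library left out, recovery versus control ranged from -0.284 to 0.0407 for H1f1 in lung and, in muscle, from -1.32 to 0.25 for H1f1, -0.69 to 0.12 for H1f3, -0.21 to 0.15 for H1f4 and -1.45 to 0.0307 for H1f5, and H1f5 for blood heat ranged from -0.78 to 0.20. The depth limits members with few reads: 11 of 59 in muscle had a mean count under 30, against 6 of 61 in lung and 3 of 61 in blood.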
